A study of Mus musculus with 20 samples.

Results

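The collagen genes of sorted mouse keratinocytes were described here. Members were all genes of the deposited count table whose symbol has the form Col, a type number, a and a chain number, without Col17a1, the hemidesmosomal collagen. The rule found 43 of 25719 genes, and 20 of the 43 had enough counts to be tested. The cells came from ear and dorsal skin, were enriched by flow cytometry, and gave 1 bulk RNA library per mouse from total RNA of the sorted cells. All mice carried floxed Cyp11b1 alleles (L2/L2), the gene for the enzyme that makes corticosterone. The conditional knockout (cKO) mice also carried K14-CreERTam, a tamoxifen-inducible Cre recombinase under the keratin 14 promoter, which is active in basal keratinocytes. Controls were littermates with no Cre. Every mouse received tamoxifen on 5 consecutive days and cells were isolated on day 6, so the series holds no mouse without tamoxifen. The drug was given on the skin in ethanol (topical, 20 µl on the ear and 100 µl on the back) or into the peritoneum in an oil-ethanol solution (systemic, 100 µl of 10 mg/ml). Shaving of the back is described for the topical route. Each of the 4 combinations of genotype and route had 5 mice, and libraries are named by group and number. Age and the conditions of the sort are not given in the sources used here.

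Collagens are proteins of 3 chains wound into a triple helix. Fibrillar types I, III and V build the dermis and are made mainly by fibroblasts. Type IV forms the sheet-like network of basement membranes, and type VII forms the anchoring fibrils that tie the epidermal basement membrane to the dermis. Keratinocytes are a main source of type VII, and they also make chains of types IV, XVIII and XXIII. From such textbook knowledge, 5 genes were listed as keratinocyte-made chains (Col7a1, Col18a1, Col4a5, Col4a6 and Col23a1) and 9 as fibroblast chains (Col1a1, Col1a2, Col3a1, Col5a1, Col5a2, Col6a1, Col6a2, Col6a3 and Col14a1). In bulk libraries, fewer cells of a type and less RNA per cell cannot be told apart.

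Library totals ran from 11588851 (systemic cKO 2) to 50082771 (systemic cKO 4) counts, and 3 counts, taken as the limit of detection, stood for 0.0599 to 0.259 on the counts-per-million scale (CPM). Basal keratinocyte markers such as Krt5 and Krt14 summed to 48522 to 121729 CPM. The fibroblast genes Dcn, Lum and Pdgfra summed to 0.593 to 7.84 CPM, with Pdgfra at 0 in 11 of 20 libraries, Lum at 0 in 4 and Dcn above 0 in all. The wider list of 15 fibroblast genes summed to 57.0 to 798 CPM, of which Postn made up 74.6% of the mean and Sparc 14.96%. Summed markers of endothelium reached at most 11.0 CPM, of leukocytes 27.8 CPM, of pericytes and smooth muscle 38.5 CPM, of hair follicle 41.4 CPM, of dermal papilla 7.68 CPM, of Schwann cells 47.7 CPM, of melanocytes 24.1 CPM and of skeletal muscle and adipocytes 8.61 CPM. Cyp11b1 itself was barely read: 7 reads in all in the topical cKO, 9 in the topical controls, 4 in the systemic cKO and 2 in the systemic controls, so these counts give no check of the deletion. Topical cKO 5 and systemic control 6 stood apart in dermal chains, with normalization factors of 1.31 and 1.52. Fold changes of single chains that moved with them are in part given with and without them. Group means, medians and counts at an unadjusted p include both.

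Collagens other than Col17a1 were a small part of these libraries. All 43 together took between 0.0123% (topical control 5) and 0.0362% (systemic control 3) of the counts, and summed to 189 CPM on average, while Col17a1 alone averaged 4186 CPM. Per kb of exon length, the scale on which genes can be compared, 3 genes led: Col16a1 at 6.97 CPM per kb, Col18a1 at 5.56 and Col7a1 at 4.36. Col16a1 encodes a fibril-associated collagen, Col18a1 the basement membrane proteoglycan from which endostatin is cut, and Col7a1 the anchoring fibril. The next were Col4a6 at 1.52, Col4a5 at 1.27, Col4a1 at 0.954, Col6a1 at 0.814, Col23a1 at 0.726, Col4a2 at 0.522 and Col8a2 at 0.338 CPM per kb. The chains of the main dermal fibrils came far lower, with Col1a2 at 0.140, Col1a1 at 0.120 and Col3a1 at 0.108 CPM per kb. The libraries of Col16a1, Col18a1 and Col7a1 overlapped, so the order among these 3 is within their spread, whereas the lowest library of each lay above every library of Col1a1, Col1a2 and Col3a1.

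**Figure D1:**
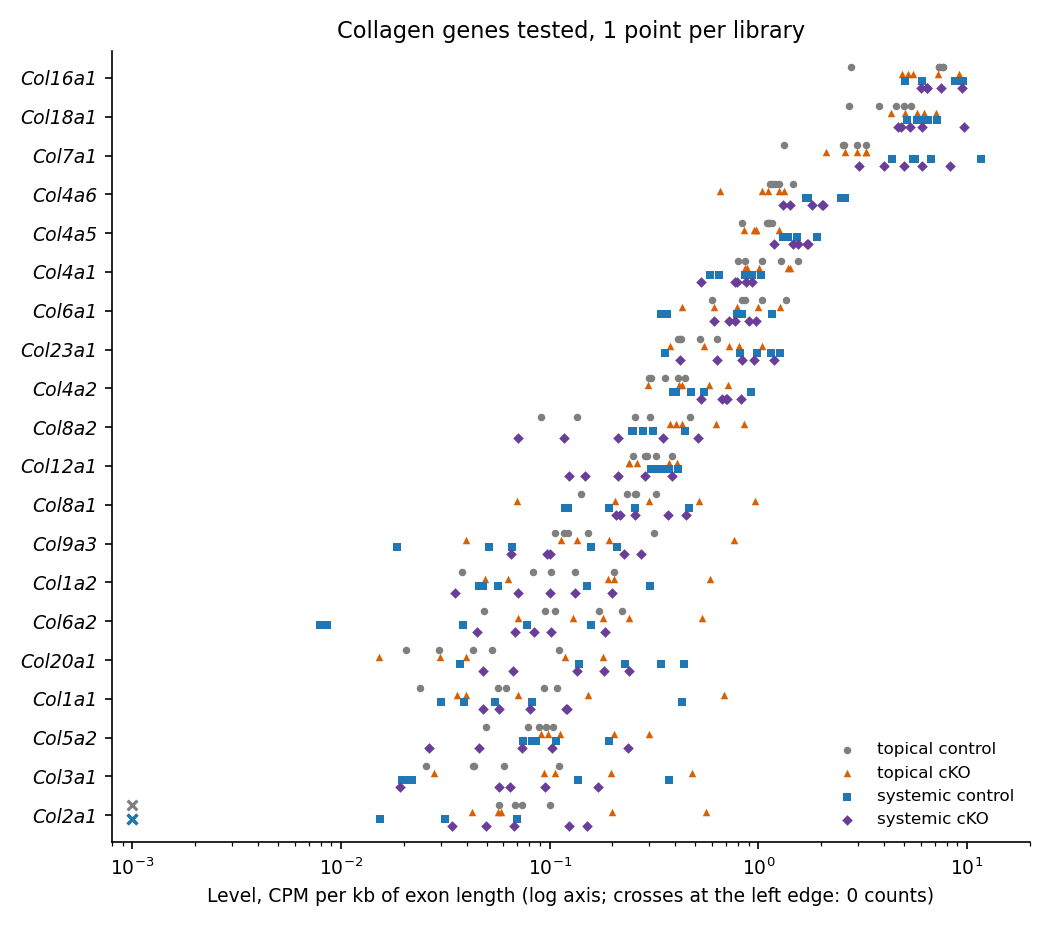
Level of the 20 collagen genes tested in each of the 20 libraries, in CPM per kb of exon length on a log axis, ordered by mean level, with colours and shapes for the 4 groups. Col16a1, Col18a1 and Col7a1 lie to the right of all other chains on average, and crosses at the left edge mark 3 libraries in which Col2a1 had 0 counts.

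The 5 keratinocyte-made chains were all read at 3 counts or more in each of the 20 libraries and summed to 76.1 ± 13.5 CPM (SD, n = 5) in topical controls, 88.5 ± 8.92 CPM in topical cKO, 144.5 ± 33.8 CPM in systemic controls and 125.9 ± 36.3 CPM in systemic cKO. The 9 fibroblast chains together had group means of 9.04, 13.4, 9.01 and 8.48 CPM in the same order, and their highest sum was 29.8 CPM in topical cKO 5. In every library the keratinocyte-made sum was the larger. Of these 9, Col5a1, Col6a3 and Col14a1 did not pass the filter on low counts. Col6a1, a chain of the beaded filaments of type VI, was the highest of the 9 with a mean of 3.57 CPM, and its group means were 4.12 ± 1.23 in topical controls, 3.59 ± 1.43 in topical cKO, 3.06 ± 1.51 in systemic controls and 3.50 ± 0.636 CPM in systemic cKO, all overlapping. The 23 members that did not pass averaged 0.00805 to 0.403 CPM. Among them, Col24a1 and Col6a5 never reached 3 counts, and Col4a3 did so in 19 libraries.

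Col16a1, the highest chain per kb, belonged to neither list. Its levels were 49.6, 51.8, 18.7, 49.7 and 51.6 CPM in topical controls 1, 3, 5, 6 and 7, and 37.3, 35.3, 61.9, 33.1 and 49.1 CPM in topical cKO 2, 3, 4, 5 and 7. They were 34.2, 64.5, 62.1, 58.9 and 41.2 CPM in systemic controls 1, 3, 4, 5 and 6, and 63.6, 50.5, 40.7, 43.4 and 43.6 CPM in systemic cKO 2, 4, 5, 6 and 7. All 4 groups overlapped, topical control 5 was the lowest library, and no comparison called this gene.

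The first question the design poses is whether loss of Cyp11b1 in keratinocytes changed collagen transcripts, and no collagen gene passed the test for it by either route. With edgeR's quasi-likelihood test and Benjamini-Hochberg adjustment over 12424 genes, 0 of 20 were called after topical tamoxifen, where 0.129% of all genes were called. After systemic tamoxifen 0 of 20 were called against 1.89% of all genes. For the difference between routes (the interaction) 0 of 20 were called against 0.250% of all genes, 0.185% higher and 0.0644% lower. At an unadjusted p under 0.05 the counts were 5, 1 and 3 of 20, against 5.66%, 15.3% and 14.0% of all genes. DESeq2 called 0 in each of these comparisons, and limma voom called 0, 1 and 0. The median log2 fold change of the 20 was 0.53 for the topical comparison, -0.15 for the systemic and -0.44 for the interaction, while the medians of all genes were 0.020, -0.0045 and -0.028. These counts and medians include topical cKO 5 and systemic control 6. Without topical cKO 5, the topical values of Col1a1, Col3a1 and Col2a1 went from 1.65, 1.73 and 1.72 to 0.11, 0.86 and 0.61. That of Col8a2 stayed between 0.86 and 1.43 when each library was left out.

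Col7a1 was at 33.6, 26.3, 13.7, 30.5 and 26.6 CPM in the topical controls 1, 3, 5, 6 and 7, and at 26.7, 33.8, 33.6, 30.7 and 21.7 CPM in the topical cKO 2, 3, 4, 5 and 7. In the systemic controls 1, 3, 4, 5 and 6 it was at 45.0, 119.7, 56.4, 58.2 and 69.1 CPM, and in the systemic cKO 2, 4, 5, 6 and 7 at 85.5, 31.3, 41.1, 51.5 and 62.9 CPM. Within each route the cKO and control ranges of this gene overlapped. Its log2 fold change by genotype was 0.16 after topical treatment (SE 0.27, 95% interval -0.40 to 0.73, edgeR adjusted p = 0.997) and -0.36 after systemic treatment (SE 0.27, 95% interval -0.92 to 0.20, edgeR adjusted p = 0.582).

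Col18a1 was at 26.6, 37.9, 19.2, 31.9 and 34.9 CPM in the topical controls and at 35.4, 30.3, 49.8, 40.4 and 43.6 CPM in the topical cKO, in the same library order. It was at 50.6, 43.2, 45.8, 36.1 and 40.3 CPM in the systemic controls and at 67.9, 42.6, 37.3, 32.7 and 33.8 CPM in the systemic cKO. Systemic cKO 2 was the highest library and topical control 5 the lowest, and cKO and controls overlapped by both routes. The log2 fold change of Col18a1 by genotype was 0.40 (SE 0.20, 95% interval -0.01 to 0.82, edgeR adjusted p = 0.895) after topical and -0.013 (SE 0.20, 95% interval -0.43 to 0.40, edgeR adjusted p = 0.984) after systemic treatment.

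For Col4a5 and Col4a6 the log2 fold changes by genotype were -0.09 (SE 0.15) and -0.20 (SE 0.18) after topical treatment and 0.02 (SE 0.14) and -0.26 (SE 0.18) after systemic treatment. Col23a1, a collagen that spans the plasma membrane, had values of 0.53 (SE 0.32) and -0.20 (SE 0.31). None of the 3 was called.

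Col1a1, Col3a1 and Col1a2, the chains of the main dermal fibrils, had values by topical genotype that moved with 1 library. Col1a1 was at 0.404, 0.158, 0.614, 0.714 and 0.370 CPM in the topical controls and at 0.235, 0.461, 0.9999, 4.49 and 0.261 CPM in the topical cKO. Col3a1 was at 0.252, 0.421, 1.09, 0.428 and 0.591 CPM and at 0.274, 0.922, 1.92, 4.72 and 1.05 CPM in the same groups. Col1a2 was at 1.26, 0.473, 2.53, 1.64 and 1.03 CPM and at 0.783, 2.36, 2.54, 7.30 and 0.610 CPM. Topical cKO 5 was the highest library for all 3 chains, and the cKO and control ranges overlapped for each. The log2 fold changes were 1.65 (SE 0.77) for Col1a1, 1.73 (SE 0.77) for Col3a1 and 1.05 (SE 0.62) for Col1a2, with edgeR adjusted p of 0.866, 0.817 and 0.945. Without topical cKO 5 they were 0.11, 0.86 and 0.20.

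After systemic treatment the order was the other way round, again with 1 high library, here a control. Col1a1 was at 0.255, 0.539, 0.198, 0.357 and 2.84 CPM in the systemic controls and at 0.793, 0.782, 0.527, 0.316 and 0.375 CPM in the systemic cKO. Col3a1 was at 0.191, 1.35, 0.198, 0.214 and 3.64 CPM and at 1.67, 0.929, 0.562, 0.632 and 0.188 CPM. Col1a2 was at 0.702, 1.89, 0.593, 0.572 and 3.74 CPM and at 2.47, 1.25, 0.878, 1.64 and 0.438 CPM. Systemic control 6 was the highest library for all 3. The log2 fold changes were -0.72 (SE 0.75), -0.66 (SE 0.74) and -0.30 (SE 0.63) for Col1a1, Col3a1 and Col1a2, with edgeR adjusted p of 0.717, 0.739 and 0.879, and without systemic control 6 they turned positive at 0.71, 0.60 and 0.43, none of them called.

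Col8a2, a chain of the hexagonal networks known from the cornea and vessel walls, was the member with the smallest adjusted p in the topical genotype comparison. It was at 0.605, 2.10, 0.410, 1.36 and 1.15 CPM in topical controls and at 1.80, 2.82, 1.69, 1.94 and 3.83 CPM in topical cKO, and the groups overlapped. Its log2 fold change was 1.08 (SE 0.43, edgeR adjusted p = 0.799). Col12a1, a fibril-associated collagen of tissues under load, had the smallest in the systemic comparison. It was at 6.26, 5.71, 5.46, 5.004 and 4.67 CPM in systemic controls and at 5.90, 1.88, 2.25, 4.36 and 3.25 CPM in systemic cKO, a log2 fold change of -0.66 (SE 0.25, edgeR adjusted p = 0.190). Limma voom called it, and so did edgeR without systemic cKO 2, the highest of these cKO libraries. Col12a1 was singled out after its values were seen, as was Col2a1, described later.

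The second question is whether the route of tamoxifen mattered, and here 3 keratinocyte-made chains were higher after injection in both genotypes. In controls 5 of 20 collagen genes were called, all higher after systemic treatment: Col7a1, Col4a6, Col4a5, Col23a1 and Col20a1. Of all genes 18.3% were called in that comparison, 10.2% higher and 8.16% lower, and 32.9% had an unadjusted p under 0.05. By list, 4 of the 5 keratinocyte-made chains were called higher and 0 of the 6 fibroblast chains tested were called. Neither list holds Col16a1, Col4a1 or Col4a2, at log2 0.24 (SE 0.24), -0.45 (SE 0.21) and 0.59 (SE 0.25) in controls, none of them called. In the cKO mice 3 of 20 were called, again all higher: Col7a1, Col4a6 and Col4a5. Of all genes 9.22% were called there, 5.19% higher and 4.02% lower. The route comparisons of controls and cKO share no libraries with each other, but each shares libraries with the genotype comparisons.

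**Figure D2:**
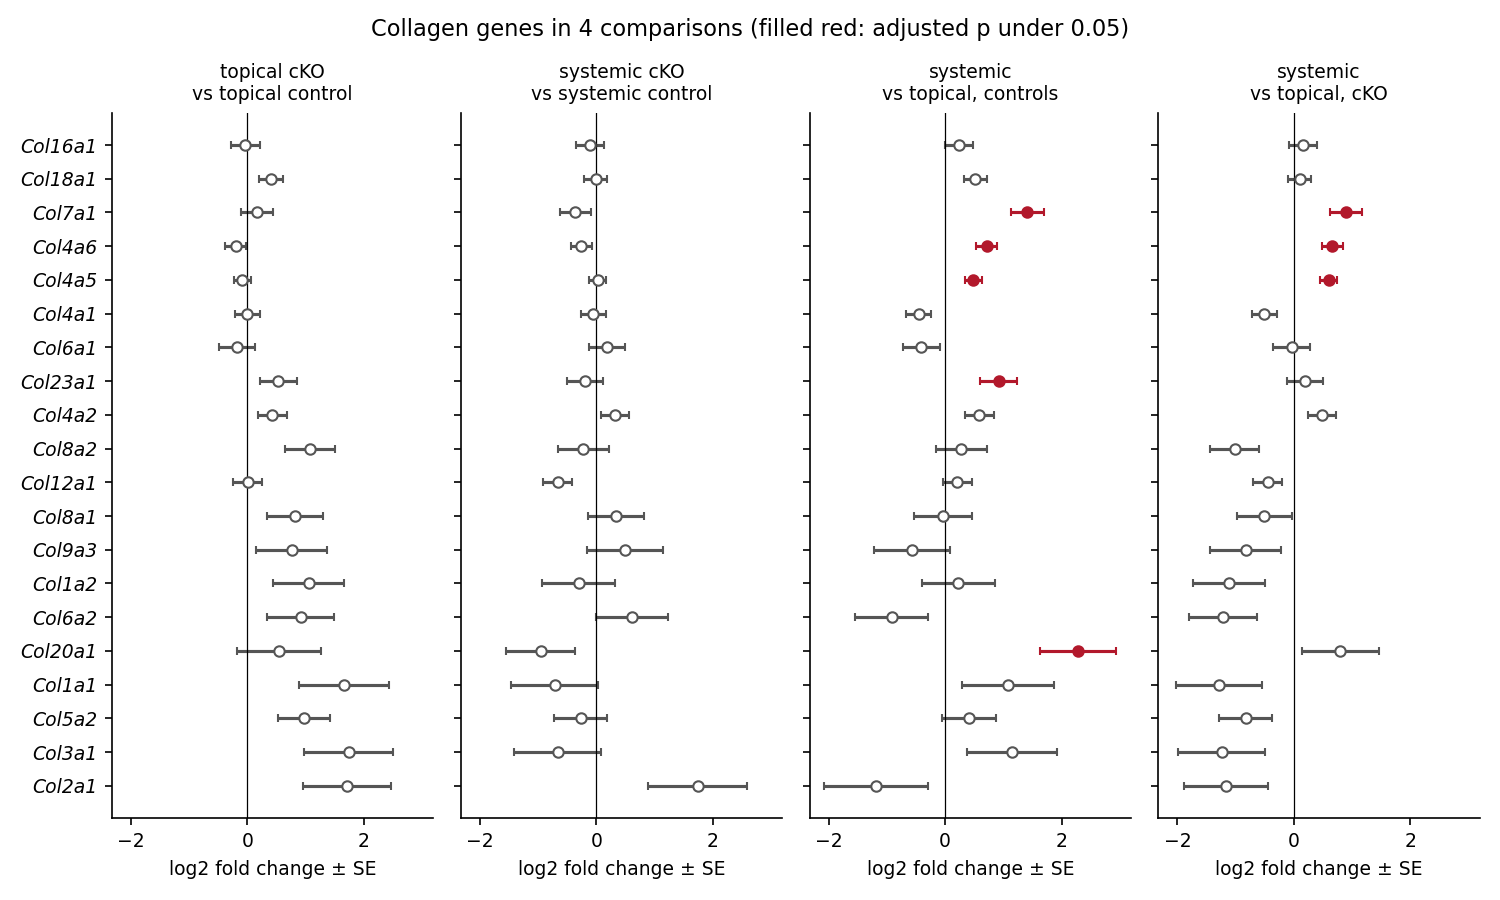
Log2 fold change with its standard error for the 20 collagen genes tested, in the topical and systemic genotype comparisons and in the route comparisons of controls and cKO. Filled red points mark adjusted p under 0.05: none by genotype, 5 by route in controls and 3 by route in cKO, all to the right of 0.

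Col7a1 showed the largest route difference among the keratinocyte-made chains. Its mean was 26.1 ± 7.57 CPM (SD, n = 5) in topical controls and 69.7 ± 29.2 CPM in systemic controls, and the groups did not overlap. The fold was 2.66 (log2 1.41, SE 0.28, 95% interval 0.84 to 1.99, edgeR adjusted p = 0.00174). In cKO mice the means were 29.3 ± 5.13 and 54.5 ± 20.96 CPM, the groups overlapped at systemic cKO 4 (31.3 CPM), and the fold was 1.85 (log2 0.89, SE 0.27, 95% interval 0.32 to 1.46, edgeR adjusted p = 0.0446). The route difference in cKO minus that in controls was -0.52 on the log2 scale (SE 0.39, edgeR adjusted p = 0.568). In controls the call for Col7a1 held under all 22 alternative settings tried, and in cKO it was lost in 14 of 22, with edgeR adjusted p up to 0.151.

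Col4a6 encodes a chain of the type IV network of the epidermal basement membrane. It was at 11.7, 9.62, 9.08, 10.1 and 9.24 CPM in topical controls and at 13.5, 20.8, 19.9, 13.8 and 13.6 CPM in systemic controls, with no overlap. In cKO it was at 8.85, 10.6, 9.999, 8.35 and 5.23 CPM after topical and at 16.3, 11.3, 10.4, 16.2 and 14.4 CPM after systemic treatment, where systemic cKO 5 fell just below the highest topical library. The log2 fold changes of Col4a6 were 0.71 (SE 0.18, edgeR adjusted p = 0.00917) in controls and 0.66 (SE 0.18, edgeR adjusted p = 0.0237) in cKO. The call was lost in 1 of 22 alternatives in controls and in 9 of 22 in cKO.

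Col4a5, whose product joins that of Col4a6 in the same network, was at 7.41, 5.63, 7.58, 7.78 and 7.58 CPM in topical controls and at 8.81, 12.8, 8.95, 9.37 and 10.3 CPM in systemic controls, with no overlap. In cKO it was at 8.42, 6.57, 6.38, 6.54 and 5.75 CPM and at 11.6, 9.85, 7.98, 11.5 and 10.4 CPM, with systemic cKO 5 below topical cKO 2. The log2 fold changes of Col4a5 were 0.48 (SE 0.15, edgeR adjusted p = 0.0254) in controls and 0.60 (SE 0.15, edgeR adjusted p = 0.0114) in cKO. The call was lost in 6 of 22 alternatives in controls and in 1 of 22 in cKO. Both genes lie on the X chromosome. By Y-linked reads 3 topical controls, 2 topical cKO, 3 systemic controls and 2 systemic cKO were male, and with sex as a covariate the same 5 and 3 collagen genes were called.

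Col4a6 (chrX:141165403-141474076, minus strand) and Col4a5 (chrX:141475385-141689234, plus strand) run head to head, with 1308 bp between their first exons in GRCm38. Col7a1 lies at chr9:108953586-108984875 on the plus strand. The promoters of these 3 genes are shown because they were the members called by route in both genotypes. The sequences are from RefSeq (GRCm38.p6), 250 bases before to 50 bases after the start site, 5′ to 3′ on the gene's own strand, at chr9:108953336-108953635, chrX:141474027-141474326 and chrX:141475169-141475468. For Col4a5 the RefSeq start site lies downstream of the first base of the gene given above, so its window is placed by the RefSeq site. Capitals mark a GC box, the binding motif of Sp1-type factors.
Col7a1: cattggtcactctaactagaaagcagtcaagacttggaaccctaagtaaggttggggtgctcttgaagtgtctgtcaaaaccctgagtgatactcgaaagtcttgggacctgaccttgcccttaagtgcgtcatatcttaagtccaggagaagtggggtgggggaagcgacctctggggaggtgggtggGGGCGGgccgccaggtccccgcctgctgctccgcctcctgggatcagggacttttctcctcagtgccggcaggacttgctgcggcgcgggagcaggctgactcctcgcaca
Col4a6: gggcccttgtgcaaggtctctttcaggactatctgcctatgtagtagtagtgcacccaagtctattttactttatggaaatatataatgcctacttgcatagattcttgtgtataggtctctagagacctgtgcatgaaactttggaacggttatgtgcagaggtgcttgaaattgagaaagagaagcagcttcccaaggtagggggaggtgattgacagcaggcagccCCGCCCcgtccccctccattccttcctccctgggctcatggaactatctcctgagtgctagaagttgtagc
Col4a5: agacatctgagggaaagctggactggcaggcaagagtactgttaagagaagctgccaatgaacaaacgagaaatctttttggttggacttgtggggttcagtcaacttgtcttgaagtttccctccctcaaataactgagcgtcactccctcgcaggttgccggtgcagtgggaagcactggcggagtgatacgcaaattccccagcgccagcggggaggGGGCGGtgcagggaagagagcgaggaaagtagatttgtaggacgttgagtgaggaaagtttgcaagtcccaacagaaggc
Each of the 3 held 1 GC box (GGGCGG, searched on both strands), as did 35.7% of 32851 promoters of the same length. Promoters were found for 34 of the 43 collagen genes, and 23 of their 37 promoters (62.2%) had the motif. None of the 3 held an AP-1 motif (TGANTCA, in 7.81% of all promoters), a glucocorticoid receptor half-site (AGAACA, 18.97%) or a TATA box (TATAAA, 13.6%). A match in these windows is a description of letters and not a measured site.

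Col23a1 was at 2.42, 3.63, 2.46, 2.999 and 2.37 CPM in topical controls and at 2.04, 6.57, 7.31, 5.65 and 4.67 CPM in systemic controls. Systemic control 1 lay below every topical control, and the other 4 lay above them. The log2 fold change was 0.92 (SE 0.31, edgeR adjusted p = 0.0457), and the call was lost in 13 of 21 alternatives. In cKO Col23a1 ranged from 2.15 to 6.00 CPM after topical and from 2.42 to 6.81 CPM after systemic treatment, with a log2 fold change of 0.19 (SE 0.31, edgeR adjusted p = 0.763).

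Col20a1, of the fibril-associated family, was a rare transcript near the limit of detection. It was at 0.151, 0.105, 0.273, 0.571 and 0.222 CPM in topical controls and at 0.191, 2.26, 1.19, 0.715 and 1.75 CPM in systemic controls, and only systemic control 1 fell among the topical values. The log2 fold change was 2.28 (SE 0.66, edgeR adjusted p = 0.0195), lost in 6 of 21 alternatives. An exon of another annotated gene on the same strand overlaps 79 bases of Col20a1, so some reads may be shared. In cKO the log2 fold change of Col20a1 was 0.80 (SE 0.66, edgeR adjusted p = 0.506).

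Col18a1 was higher after injection in controls by 0.52 on the log2 scale (SE 0.20, edgeR adjusted p = 0.0731) and by 0.10 (SE 0.20, edgeR adjusted p = 0.807) in cKO, neither called. The call in controls was reached in 3 alternatives, with an edgeR adjusted p of 0.0373 at the lowest. Col4a1 and Col4a2, the chains of the type IV network common to all basement membranes, did not pass either. Col4a1 averaged 8.28 ± 2.35 CPM in topical and 6.07 ± 1.39 CPM in systemic controls (log2 -0.45, SE 0.21, edgeR adjusted p = 0.143), and it was called lower only with offsets for exon length and GC content (log2 -0.70, edgeR adjusted p = 0.0334). Col4a2 averaged 2.41 ± 0.428 and 3.64 ± 1.45 CPM (log2 0.59, SE 0.25, edgeR adjusted p = 0.105). These 2 genes overlap by 22 bp on opposite strands, and whether the counting used strand is not given in the sources used here. The signs of Col4a1 and Col4a2 were the same in cKO, at -0.50 (SE 0.21) and 0.48 (SE 0.24).

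**Figure D3:**
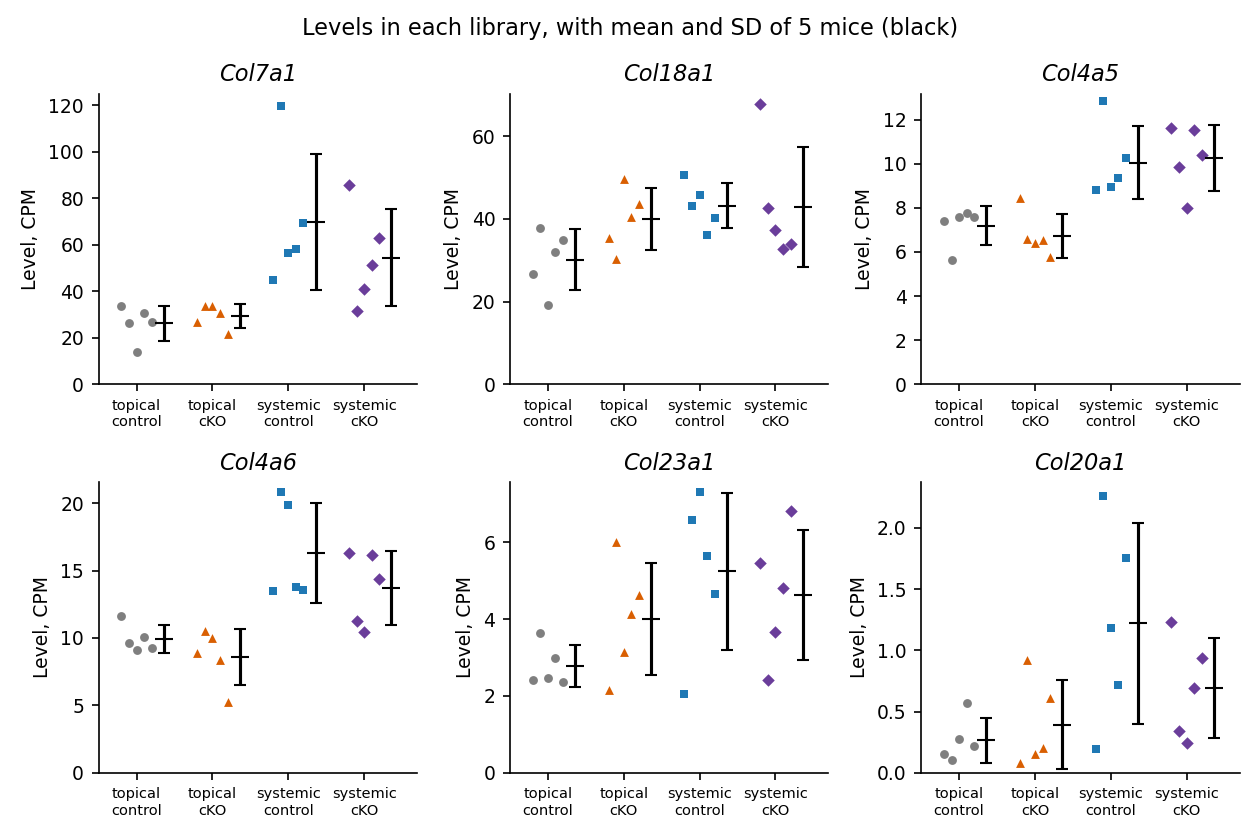
CPM of Col7a1, Col18a1, Col4a5, Col4a6, Col23a1 and Col20a1 in each library of the 4 groups, with the mean and SD of 5 mice in black and all axes from 0. For Col7a1, Col4a5 and Col4a6 the systemic controls lie above all topical controls, and systemic control 3 is the highest library of each.

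Other measures moved with route. The 15 fibroblast genes averaged 313 CPM in topical controls (median 130, highest 798) and 257 CPM in topical cKO. The systemic groups averaged 86.1 and 97.5 CPM (medians 73.7 and 104). Of the 7 tested, 1 was called lower by route in each genotype. Dcn, Lum and Pdgfra summed to 2.01 ± 1.41 CPM in topical and 1.65 ± 1.15 CPM in systemic controls, and to 3.61 ± 2.43 and 1.42 ± 0.296 CPM in cKO. With the sum of the 15 genes as a covariate 2 collagen genes (Col7a1 and Col18a1) were called by route in controls and 0 in cKO. With the sum of Dcn, Lum and Pdgfra 5 and 1 were. Of suprabasal keratinocyte markers 3 of 6 were called higher after injection in cKO (median log2 0.99). In controls 0 of 6 were called (median -0.03, 1 at an unadjusted p under 0.05). Of endothelial markers 2 of 6 were lower in cKO and 1 of 6 in controls, of dermal papilla markers 1 of 2 tested was higher in each, of melanocyte markers 1 of 4 was higher in controls, and of basal keratinocyte markers 1 of 8 was higher and 1 lower in controls. Of all genes 10.2% were called higher and 8.16% lower by route in controls, and 5.19% and 4.02% in cKO. Beside these shares, a count of 1 in such short lists says little about the markers. The part of these markers in the collagen calls was not tested. Laptm4a, a lysosomal membrane gene, was at 8.89 to 19.8 CPM in the 5 systemic controls and in systemic cKO 2, and at 40.2 to 118 CPM in the other 14 libraries. In controls that split and the route cannot be told apart. In cKO only systemic cKO 2 lies on the low side, so leaving it out compares the routes among high libraries alone. The log2 fold changes by route in cKO were then 0.55 for Col4a5 (edgeR adjusted p = 0.0277), 0.59 for Col4a6 (edgeR adjusted p = 0.0566) and 0.67 for Col7a1 (edgeR adjusted p = 0.137), so 1 of the 3 calls held. With each of the 10 cKO libraries left out, the calls of Col7a1 and Col4a6 were lost 8 and 5 times. Their loss is thus not particular to systemic cKO 2, and the part of the split was not tested.

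Long transcripts as a whole were higher after injection in controls. Among the 3803 tested genes with 6 kb or more of exon, the median log2 fold change was 0.20 and 16.8% were called higher, against -0.12 and 5.81% for genes under 4 kb. In cKO the long genes had a median of 0.075 and 6.23% were called higher. Col7a1 (10.287 kb), Col4a6 (7.973 kb) and Col4a5 (6.718 kb) are all long. With offsets for length and GC content in each library, chosen after seeing the data, the log2 fold changes in controls were 0.98 for Col7a1 (edgeR adjusted p = 0.00152), 0.54 for Col4a6 (edgeR adjusted p = 0.0196) and 0.40 for Col4a5 (edgeR adjusted p = 0.0421), and in cKO 0.79, 0.63 and 0.58, all called.

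The counts of calls by route also moved with single libraries. In controls 3 members were called without topical control 1 or without topical control 3, and 2 (Col7a1 and Col4a6) without systemic control 3 or without systemic control 6. In cKO Col4a5 alone was called without topical cKO 2, 5 or 7 and without systemic cKO 2 or 6.

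The fibroblast chains showed no route difference that passed the test. In controls the median log2 fold change of the 6 tested was 0.32, between -0.92 for Col6a2 and 1.16 for Col3a1. In cKO it was -1.17, between -1.29 for Col1a1 and -0.04 for Col6a1. At an unadjusted p under 0.05 the counts were 0 and 1 of 6, against 32.9% and 23.1% of all genes. The values in controls rested on systemic control 6: without it Col1a1 and Col3a1 went from 1.08 and 1.16 to -0.35 and -0.11. The cKO value of Col1a1 rested on topical cKO 5: without it Col1a1 went from -1.29 to 0.25. When each library was left out, Col3a1 in cKO ranged from -1.59 to -0.37 and Col1a2 from -1.41 to -0.27, so the cKO median also moves with single libraries.

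To part the chains in another way, each gene was tested for whether it followed fibroblast genes between mice of the same group. With the list of 15 fibroblast genes, 0 of 20 collagen genes followed it (edgeR quasi-likelihood test, Benjamini-Hochberg), against 0.0966% of all genes in either direction and 0.0483% rising with it. The slopes were -0.73 (SE 0.44) for Col1a1, -0.67 (SE 0.33) for Col1a2 and -0.28 (SE 0.44) for Col3a1, with edgeR adjusted p of 0.578, 0.495 and 0.842. That sum was mostly Postn, which ranged from 16.5 to 756 CPM. Postn itself was among the 12 genes called with it. So were Y-linked Kdm5d, Uty, Eif2s3y and Ddx3y, with slopes of -5.91, -6.99, -9.41 and -9.96. Within groups the sum therefore also went with the sex of the mice, and it is not a measure of fibroblast content alone. With Dcn, Lum and Pdgfra alone, 4 of 12424 genes (0.0322%) were called, and they were Dcn itself, Col1a1, Col1a2 and Col3a1. The slopes of these 3 chains had the opposite sign. They are in log2 units of the chain per log2 unit of the summed markers plus 1 CPM. The values were 2.08 (SE 0.29, edgeR adjusted p = 0.00308) for Col1a1, 1.96 (SE 0.33, edgeR adjusted p = 0.0189) for Col3a1 and 1.60 (SE 0.27, edgeR adjusted p = 0.0189) for Col1a2. The markers summed to only 0.593 to 7.84 CPM, so the added 1 CPM narrows that scale and the slopes are not fold per fold. The slopes of Col7a1 and Col18a1 were 0.081 and -0.10, with edgeR adjusted p of 0.856 and 0.714.

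The calls for the 3 dermal chains rested on 2 libraries. Topical cKO 5 had 16.5 CPM of Col1a1, Col1a2 and Col3a1 together and 7.84 CPM of Dcn, Lum and Pdgfra, and systemic control 6 had 10.2 and 3.47 CPM. The other 18 libraries had at most 5.46 CPM of the 3 chains. Without topical cKO 5 the edgeR adjusted p of the 3 chains rose to between 0.282 and 0.372, without systemic control 6 to between 0.0816 and 0.271, and without both to 0.749, with slopes of 1.05, 1.33 and 1.63 for Col1a1, Col1a2 and Col3a1. The call for Col1a2 was also lost without topical control 3 (0.0634), and those for Col1a2 and Col3a1 without topical cKO 2 (0.0645 each) and without systemic control 4 (0.0780 and 0.0997).

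**Figure D4:**
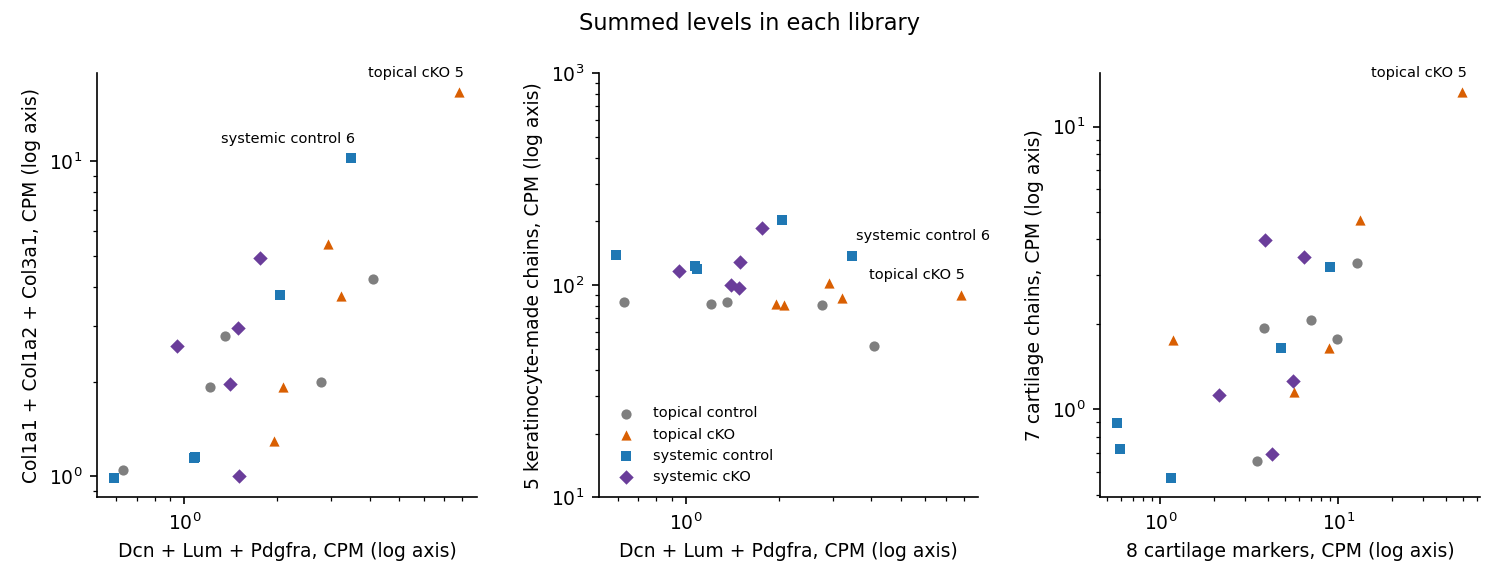
Summed CPM per library on log axes: Col1a1, Col1a2 and Col3a1 against Dcn, Lum and Pdgfra (left), the 5 keratinocyte-made chains against the same markers (middle), and 7 cartilage chains against 8 cartilage markers (right). Topical cKO 5 has the highest value of the left and right panels on both axes, and the keratinocyte-made chains lie between 52.0 and 203 CPM.

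Topical cKO 5 was also the highest library for chains known from cartilage. Col2a1, the main fibril of cartilage, had 203 counts (5.18 CPM) there and between 0 and 1.84 CPM in the other libraries. The 7 cartilage chains (Col2a1, Col9a1, Col9a2, Col9a3, Col10a1, Col11a1 and Col11a2) summed to 13.2 CPM in topical cKO 5, with a median of 1.71 CPM over the 20 libraries. The 8 cartilage markers Acan, Comp, Chad, Cnmd, Hapln1, Matn3, Snorc and Cytl1, a list chosen after seeing the data, summed to 49.8 CPM there and to 0.574 to 13.3 CPM elsewhere, of which Cytl1 gave 39.7 CPM in topical cKO 5. The part of these markers in the results was not tested. The log2 fold changes of Col2a1 by genotype were 1.72 (SE 0.76, edgeR adjusted p = 0.817) after topical treatment, 0.61 without topical cKO 5, and 1.74 (SE 0.85, edgeR adjusted p = 0.336) after systemic treatment.

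Genes that fold, cut, cross-link and bind collagen were tested from lists. None of those tested was called by genotype or for the interaction: 16 of 18 genes of folding and hydroxylation were tested, 3 of 8 of propeptide cleavage, 2 of 5 of cross-linking, 6 of 11 of collagen cleavage, 6 of 8 collagen receptors and 14 of 15 basement membrane partners. By route 0 of 2 cross-linking genes were called in controls or in cKO, folding genes numbered 0 of 16 in controls and 1 in cKO, and receptors 0 of 6 in controls and 1 in cKO. At an unadjusted p under 0.05 these were 2 and 1 of the cross-linking genes, 2 and 4 of the folding genes and 1 and 3 of the receptors, against 32.9% and 23.1% of all genes. By route in controls, Lama5, the laminin chain of mature epidermal basement membranes, went from 13.2 ± 2.15 to 46.7 ± 14.0 CPM (log2 1.83, SE 0.30, edgeR adjusted p = 0.000440). Frem2, of the Fraser complex that anchors basement membranes, went from 4.01 ± 1.10 to 9.30 ± 2.68 CPM (log2 1.23, SE 0.28, edgeR adjusted p = 0.00458). In cKO the difference was smaller for both. Lama5 was at 18.7 ± 7.03 CPM after topical and 27.5 ± 13.8 CPM after systemic treatment there, and Frem2 at 4.20 ± 1.84 and 7.45 ± 1.66 CPM.

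Adamts14, a protease that removes the amino-terminal propeptide of fibrillar collagens, was higher after injection in controls (log2 0.74, SE 0.19, edgeR adjusted p = 0.0104) and in cKO (log2 0.80, SE 0.19, edgeR adjusted p = 0.0102). Mmp13, a collagenase, was lower in both, at log2 -2.70 (SE 0.54, edgeR adjusted p = 0.00201) and -2.63 (SE 0.50, edgeR adjusted p = 0.00181). Its systemic libraries lay between 0.0881 and 0.316 CPM, near the limit of detection. Mmp3, a stromelysin, was lower in controls (log2 -1.48, SE 0.50, edgeR adjusted p = 0.0447). In cKO the gelatinase gene Mmp2 (log2 -0.92, SE 0.25, edgeR adjusted p = 0.0196) and the fibrillar collagen receptor gene Ddr2 (log2 -0.87, SE 0.23, edgeR adjusted p = 0.0191) were lower, and P3h4, which acts in collagen lysine hydroxylation, was higher (log2 0.52, SE 0.16, edgeR adjusted p = 0.0487).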

How the data were processed

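The authors deposited 1 table of raw counts per gene for 20 libraries, 1 per mouse. Per the submitters' processing notes, reads were aligned with STAR and counted with featureCounts on GRCm38 (mm10); versions, annotation and strand setting are not given in the sources used here, and per the labels' protocols libraries were made with SmartSeq II. From the counts, genes passing filterByExpr (minimum count 10, minimum total 15) were fitted with edgeR 4.0.16 (TMM, robust quasi-likelihood) in 1 model over all 20 libraries, with adjustment over 12424 genes and calls at an adjusted p under 0.05. The p-values measure the spread between mice. CPM values use TMM-scaled library sizes, and CPM per kb divides by exon length from GENCODE M21 (GRCm38). Intervals are 95%. The pipeline was tested on simulated data. Alternatives used DESeq2 1.42.0, limma 3.58.1, other filters, covariates and left-out libraries; the offsets for length and GC content used mgcv 1.9.3. The covariate of Dcn, Lum and Pdgfra, the offsets, and leaving topical cKO 5 and systemic control 6 out together were added after seeing the data. Described singly were the 5 chains Col7a1, Col18a1, Col1a1, Col1a2 and Col3a1, each collagen gene called in any comparison and the 10 highest per kb; of the pathway genes, at most 3, ranked by adjusted p, among the calls in each direction of a comparison. The members and lists were chosen with earlier results of these data known. Counts of basement membrane partners called by route are not reported here.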

Additional observations from a re-analysis of the deposited data

Results flagged for a closer look

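In 80 checks of 20 genes in 4 groups of 5, 9 values stood far from the rest of their group, and chance alone flags about 1 in 20. In topical cKO 5 these were Col1a1 at 4.49 CPM (next 0.9999), Col1a2 at 7.30 CPM (next 2.54) and Col9a3 at 2.96 CPM (next 0.744). In systemic control 6 they were Col1a1 at 2.84 CPM (next 0.539) and Col5a2 at 1.85 CPM (next 1.02). Col9a3 was at 1.21 CPM in topical control 6 (next 0.591), and Col18a1 at 67.9 CPM in systemic cKO 2 (next 42.6). Low values were Col16a1 at 18.7 CPM in topical control 5 (next 49.6) and Col4a5 at 5.63 CPM in topical control 3 (next 7.41).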

How the results depend on the processing

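No collagen gene was called for the topical genotype comparison or the interaction under any setting run. The systemic genotype count rose to 1 (Col12a1) with limma voom, and ranged from 0 to 1 when each library was left out. The route count ranged from 2 to 5 in controls and from 1 to 4 in cKO when each library was left out. With the covariate of 15 fibroblast markers it was 2 and 0, with that of Dcn, Lum and Pdgfra 1 in cKO, and without both topical cKO 5 and systemic control 6 it was 2 and 1. Following only Dcn, Lum and Pdgfra gave 3 collagen genes in place of 0. Whether the replicate numbers pair mice could not be told. The 20 same-number pairs correlated at -0.31 to 0.51, with 9 over 0.1, and pairs with different numbers were not measured. With the replicate block 5 and 2 genes were called by route, and Col1a2 in controls reversed to -0.10. Col4a5 by systemic genotype, otherwise 0.02, was -0.0017 with limma voom, -0.0019 with the filter raised to a mean of 5 CPM, -0.043 with the replicate block, and -0.021 to 0.13 when each library was left out. Signs that reversed were of values not called, given as log2 fold changes, and the cause was not tested. With all genes that had a count, Col18a1 by systemic genotype was 0.0080. With sex as a covariate, Col1a2 by systemic genotype was 0.082. With the 15-marker covariate, Col1a2 by route in controls was -0.63. With the covariate of Dcn, Lum and Pdgfra, Col1a2 and Col1a1 by topical genotype were -0.29 and -0.38, Col3a1, Col1a2 and Col1a1 by systemic genotype 0.14, 0.20 and 0.085, Col1a2 and Col1a1 for the interaction 0.49 and 0.46, and Col3a1, Col1a2 and Col1a1 by route in cKO 0.83, 0.66 and 1.25. Without both libraries, Col3a1, Col1a2 and Col1a1 by systemic genotype were 0.60, 0.43 and 0.71, Col1a2 and Col1a1 for the interaction 0.23 and 0.60, Col3a1, Col1a2 and Col1a1 by route in controls -0.10, -0.50 and -0.35, and Col1a1 by route in cKO 0.25. With the offsets, Col7a1 by topical genotype was -0.041, Col18a1 by systemic genotype 0.076 and Col1a2 by route in controls -0.21. When each library was left out, values by systemic genotype ranged from -1.01 to 0.60 for Col3a1, -0.59 to 0.43 for Col1a2, -0.94 to 0.71 for Col1a1 and -0.24 to 0.071 for Col18a1. By route in controls they ranged from -0.11 to 1.499 for Col3a1, -0.50 to 0.55 for Col1a2 and -0.35 to 1.30 for Col1a1, and in cKO from -1.56 to 0.25 for Col1a1 and -0.12 to 0.19 for Col18a1. A fit on only the libraries compared was not run for the interaction. Depth limits Col20a1 and the 23 genes not tested.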
